A study of Mus musculus with 9 samples.

Results

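The genes described are those whose platform symbol starts with Kcn, the prefix of potassium channel genes, without the ATP-sensitive channel genes Kcnj8 and Kcnj11. There were 82 such genes among 18193 genes on the arrays, each read from its probe set (a group of probes for the same transcript) with the highest mean over 9 arrays. A further set of 14 Kcn symbols known to RefSeq was not analysed here. Expression was measured in cells sorted from the back skin of 3 mice, numbered 2, 4 and 5, at postnatal day 2, with 1 array per mouse in each of 3 gates. Gate R3 held GFP+CD133+ cells, labelled as papilla cells of guard, awl and auchene hairs. Gate R2 held GFP-CD133+ cells, labelled as papilla cells of zigzag hairs. Gate R1 held GFP-CD133- cells, described as the remaining dermal cells without papilla cells, though keratinocyte markers were highest there. The dermal papilla is a cluster of specialised mesenchymal cells that the hair bulb encloses. Prom1 encodes CD133, and in mice used for this kind of sort GFP is known as a Sox2 reporter, which the labels do not state. All groups therefore came from the same 3 animals, and the labels give neither strain nor sex.

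Potassium channels let potassium ions leave or enter a cell along their gradient and set its membrane voltage. Voltage-gated channels (Kv) open on depolarisation, inward rectifiers (Kir) and tandem pore domain channels (K2P) set the resting voltage, and calcium-activated channels answer a rise of calcium in the cell. Pore-forming subunits assemble with one another and with auxiliary subunits that change gating or transport to the membrane. In hair biology, potassium channels of the papilla are known mainly through the ATP-sensitive channel, the target of minoxidil.

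The deposited values are on a log2 scale, so a difference of 1 is a 2-fold change, and levels of different genes cannot be set against each other because each probe set binds with its own strength. Olfactory receptor genes (44 probe sets) had a 95th percentile of 5.34 over all arrays, taken as a guide to background because skin is not known to use most of these genes. Of the 82 channel genes, 42 had a mean above that guide. Array medians lay between 6.13 and 6.20, and the number of arrays limits the precision. A difference between gates in such bulk samples can come from fewer cells of a type or from less RNA per cell, and these cannot be told apart. The 3' minus 5' difference of the beta-actin control probe sets, a sign of RNA quality, was 0.12 to 0.20 on the R3 arrays, 0.11 to 0.22 on the R2 arrays and 0.04 to 0.07 on the R1 arrays (log2), and its part in the differences from R1 was not tested. The same difference for Gapdh overlapped between gates, at 2.68 to 3.02 in R3, 2.57 to 2.85 in R2 and 2.63 to 2.97 in R1.

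Between the papilla gates, 10 of the 82 channel genes passed the test (limma, Benjamini-Hochberg adjusted p under 0.05 over all genes), 7 higher and 3 lower in R3 than in R2. That is 12.2% of the channel genes, where 5.03% of all genes were called. The share called higher was 8.54% of the channel genes, against 1.97% of all genes. The share called lower was 3.66%, against 3.06% of all genes. The higher genes were the Kv1 genes Kcna1, Kcna2 and Kcna6, the Kv4 gene Kcnd2, the ether-a-go-go-like gene Kcnh8, the Kv7 gene Kcnq3 and the inward rectifier gene Kcnj10. The lower ones were Kcna5, Kcnma1 and Kcne4. The median log2 change was 0.06 over the channel genes and -0.011 over all genes.

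In R2 against R1, 6 channel genes were called, 7.32% against 13.1% of all genes. Kcnj3 was the single higher gene (1.22%, against 6.89% of all genes), and Kcne3, Kcne4, Kcnk2, Kcnk13 and Kcnq1 were lower (6.1%, against 6.16%). In R3 against R1, 15 were called, 18.3% against 18.7% of all genes. Of these, 9 were higher (11%, against 7.9% of all genes) and 6 were lower (7.32%, against 10.8%). Over both directions, the share called was thus under that of all genes in R2 against R1 and close to it in R3 against R1. These shares rest on few channel genes, and none was tested against the share of all genes. In all, 17 channel genes were called in at least 1 comparison and 65 in none. The 3 comparisons share arrays, each gate entering a pair of them. Among the 42 channel genes above the background guide, 5 were called in R3 against R2, which is 11.9% against 7.65% of the 12887 genes above the guide. Of these 5, 3 were higher and 2 lower, as Kcna2, Kcnh8, Kcnq3, Kcnj10 and Kcnma1 had means under the guide. The filter used the mean over all 9 arrays, so a gene could pass through its high gate alone. Kcnd2 passed with a mean of 5.37, at 7.54 in R3, 4.83 in R2 and 3.72 in R1. In the same setting 6 were called in R2 against R1 (14.3%, against 18.7%) and 10 in R3 against R1 (23.8%, against 26.3%). With the mouse as a fixed block, 4 channel genes were higher and 4 lower in R2 than in R1, and with a random block 3 were higher. Without R1 replicate 4 the count in R2 against R1 was 3.

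**Figure D1:**
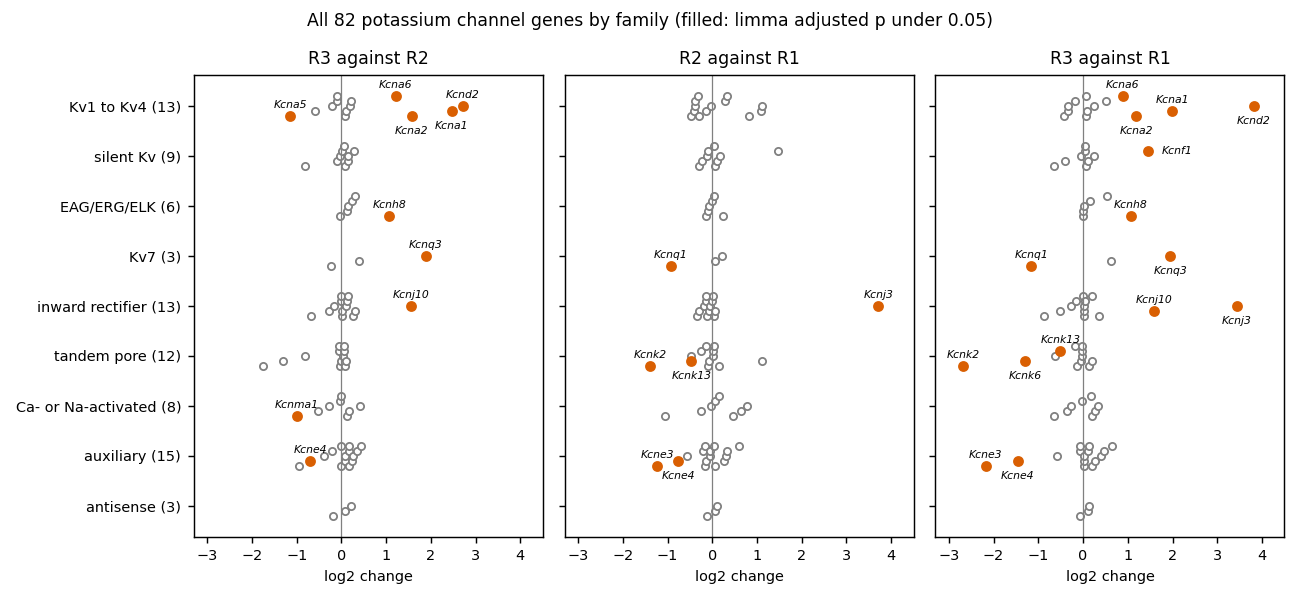
Each point is 1 of the 82 potassium channel genes, placed by its log2 change (horizontal axis) in its family (vertical axis, number of genes in brackets), with a panel for each comparison. Filled points passed limma's adjusted p of 0.05, as 10, 6 and 15 genes did in R3 against R2, R2 against R1 and R3 against R1, and most open points lie close to 0.

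Among the inward rectifier genes, Kcnj3 set both papilla gates apart from R1. Kcnj3 encodes Kir3.1, a subunit of the channel that G protein-coupled receptors open through G protein beta-gamma subunits. Its log2 values were 6.91, 7.49 and 8.11 on the R3 arrays, 7.63, 7.77 and 7.90 on the R2 arrays and 3.61, 4.28 and 4.28 on the R1 arrays, in the order of mice 2, 4 and 5. Every papilla array stood above every R1 array, while the R3 and R2 arrays overlapped. The gene was 10.9-fold higher in R3 than in R1 (log2 change 3.44 ± 0.29 SE, n = 3 arrays per gate, limma adjusted p = 5.59e-05) and 13.1-fold higher in R2 than in R1 (log2 change 3.71, SE 0.29, limma adjusted p = 5.59e-05). Since R1 lay below the background guide, both folds rest on a dim R1 signal. R3 and R2 differed by -0.27 with a 95% interval from -0.92 to 0.38 (adjusted p = 0.692). Of the 3 other Kcnj3 probe sets, 2 were also called higher in R2 than in R1, with log2 changes of 3.15 and 3.59, and the remaining one changed by 0.48 at gate means between 3.27 and 3.96. Averaged over its probe sets, Kcnj3 changed by 2.67 in R3 against R1 and by 2.73 in R2 against R1.

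Kir3.1 is known to need a partner subunit to work at the cell surface. The partner genes Kcnj5, Kcnj6 and Kcnj9, named here after their values were seen, had gate means between 4.47 and 4.76, 5.12 and 5.28, and 4.72 and 4.86, all under the background guide. None of the 3 was called in any comparison (limma adjusted p from 0.387 to 0.977). The gate means of these partner probe sets thus gave no signal over the guide, which does not show that the partners were absent.

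Kcnj10 encodes Kir4.1, the inward rectifier through which glial cells take up potassium. The 9 arrays gave log2 values of 6.82, 5.95 and 6.04 in R3, against 4.78, 4.77 and 4.59 in R2 and 4.64, 4.47 and 4.95 in R1. All R3 arrays were above all others, with mouse 2 the highest, and R2 and R1 overlapped under the background guide. In R3 the gene was 2.95-fold higher than in R2 (1.56 on the log2 scale, SE 0.23, limma adjusted p = 0.00397) and 3.00-fold higher in R3 than in R1 (adjusted p = 0.00123). Its usual partner Kcnj16 (Kir5.1), also named after its values were seen, had means of 3.57 in R3, 3.58 in R2 and 3.72 in R1 and was not called. The other Kcnj16 probe set, far under the guide at 2.93 in R3, 2.67 in R2 and 2.36 in R1, was called higher in R3 than in R1. Its log2 change was 0.58 (limma adjusted p = 0.0314 among all probe sets). On the probe sets used, the 11 inward rectifier genes other than Kcnj3 and Kcnj10 were not called in any comparison. The lowest change in the family was -0.69 in R3 against R2, -0.35 in R2 against R1 and -0.87 in R3 against R1.

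Promoter windows are shown for a few genes that differed between gates. Kcnj3 and Kcnd2 had the largest increases against R1, Kcnj10 was the other inward rectifier gene called, and Kcna6 and Kcna5 lie close together and changed in opposite directions between R3 and R2. They are RefSeq windows (GRCm38.p6) of 300 bases, 250 before and 50 after the annotated start, written 5' to 3' along the gene. Capitals mark exact matches on either strand to 4 short motifs. ACAATG is a run of letters bound by SOX factors. ACAAAG is met both in SOX sites and, read on the other strand, in TCF and LEF sites, and it shares its first 4 letters with the motif before. The TATA box was searched as TATAAA. The GC box, bound by SP factors, was searched as GGGCGG.
Kcnj3, chr2:55435720-55436019, plus strand: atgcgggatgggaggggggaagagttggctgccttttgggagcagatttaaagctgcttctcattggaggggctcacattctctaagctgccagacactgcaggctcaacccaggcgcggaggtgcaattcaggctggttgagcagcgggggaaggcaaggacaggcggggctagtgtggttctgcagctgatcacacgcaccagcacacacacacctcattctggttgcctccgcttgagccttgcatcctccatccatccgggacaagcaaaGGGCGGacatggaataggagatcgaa
Kcnd2, chr6:21215096-21215395, plus strand: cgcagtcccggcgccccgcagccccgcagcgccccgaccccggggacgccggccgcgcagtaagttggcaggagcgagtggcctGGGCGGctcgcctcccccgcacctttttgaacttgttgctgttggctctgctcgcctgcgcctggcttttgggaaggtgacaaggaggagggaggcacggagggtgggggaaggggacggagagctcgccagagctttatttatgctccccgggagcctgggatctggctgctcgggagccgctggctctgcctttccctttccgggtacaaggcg
Kcnj10, chr1:172340960-172341259, plus strand: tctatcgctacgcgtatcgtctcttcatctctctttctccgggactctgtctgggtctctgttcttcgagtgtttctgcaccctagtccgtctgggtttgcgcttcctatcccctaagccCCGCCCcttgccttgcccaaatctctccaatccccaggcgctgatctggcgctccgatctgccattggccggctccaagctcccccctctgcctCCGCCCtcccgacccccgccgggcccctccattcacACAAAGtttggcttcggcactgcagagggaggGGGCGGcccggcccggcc
Kcna6, chr6:126740625-126740924, minus strand: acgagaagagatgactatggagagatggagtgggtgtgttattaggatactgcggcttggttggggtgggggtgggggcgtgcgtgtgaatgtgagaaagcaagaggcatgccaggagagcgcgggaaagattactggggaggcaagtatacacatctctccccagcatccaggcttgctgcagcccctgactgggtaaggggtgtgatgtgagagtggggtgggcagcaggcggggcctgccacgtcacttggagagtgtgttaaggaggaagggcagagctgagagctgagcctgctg
Kcna5, chr6:126535506-126535805, minus strand: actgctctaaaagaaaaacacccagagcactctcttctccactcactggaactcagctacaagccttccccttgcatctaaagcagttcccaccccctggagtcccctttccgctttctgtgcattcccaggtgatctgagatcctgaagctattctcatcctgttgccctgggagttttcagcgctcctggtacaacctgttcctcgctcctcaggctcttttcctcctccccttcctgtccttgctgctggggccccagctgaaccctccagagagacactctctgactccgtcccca

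A GC box was found once in the Kcnj3 and Kcnd2 windows and 3 times in that of Kcnj10, which also held 1 ACAAAG match. The Kcna6 and Kcna5 windows held none of the 4 motifs. RefSeq windows existed for 63 of the 82 channel genes (88 windows). A GC box stood in 48.9% of these and in 35.7% of all 32851 windows, ACAATG in 6.82% and 12.6%, ACAAAG in 15.9% and 18.7%, and TATAAA in 5.68% and 13.6%. The median GC content was 58.2% over the channel gene windows, against 52.7% over all windows. These are letter matches, described as such.

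Of the 13 genes for Kv1 to Kv4 pore subunits, 4 were higher and 1 lower in R3 than in R2, and 4 were higher in R3 than in R1. In R2 against R1 limma called 0 of the 13, with 5 at an unadjusted p under 0.05. Kcna1, Kcna2 and Kcna6 encode Kv1.1, Kv1.2 and Kv1.6, delayed rectifier subunits that hold back firing in neurons and line myelinated axons next to the nodes. Kcna1 had log2 values of 7.97, 8.41 and 7.77 in R3, against 5.85, 5.53 and 5.36 in R2 and 6.14, 5.88 and 6.14 in R1. Its R3 arrays were far above the others, and its R2 arrays were lowest. In R3 the gene was 5.54-fold higher than in R2 (2.47 on the log2 scale, SE 0.19, limma adjusted p = 9.84e-05) and 3.98-fold higher in R3 than in R1 (adjusted p = 0.000124). A pair of other Kcna1 probe sets gave larger differences between R3 and R2, with log2 changes of 4.06 (8.27 in R3, 4.20 in R2) and 4.15 (7.80 in R3, 3.65 in R2). The last of its 4 probe sets, at 2.87 in R3 and 2.70 in R2, was not called. The size of the Kcna1 change thus depended on the probe set read, while its sign was the same in all 4.

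Kcna2 had log2 values of 5.39, 5.68 and 5.72 in R3, against 3.90, 3.85 and 4.31 in R2 and 4.77, 3.83 and 4.63 in R1. R3 was again apart from both other gates, which overlapped. In R3 it was 2.98-fold higher than in R2 (1.57 on the log2 scale, SE 0.25, limma adjusted p = 0.00549) and 2.28-fold higher in R3 than in R1 (adjusted p = 0.0085), from levels below the background guide in R2 and R1. Kcna6 had values of 6.38, 6.51 and 6.28 in R3, against 4.88, 5.15 and 5.51 in R2 and 5.48, 5.48 and 5.55 in R1. In R3 it was 2.31-fold higher than in R2 (1.21 on the log2 scale, SE 0.16, adjusted p = 0.00236) and 1.85-fold higher in R3 than in R1 (adjusted p = 0.00455). The R2 mean of Kcna6, 5.18, lay under the guide and its R1 mean, 5.50, just above. Averaged over its probe sets, the changes of Kcna6 were 0.80 and 0.52. In R2 against R1 the log2 changes of Kcna1, Kcna2 and Kcna6 were -0.48, -0.39 and -0.32, and none passed the test (adjusted p = 0.147, 0.362 and 0.247).

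Kcna5 encodes Kv1.5, known from the atrium and from vascular smooth muscle, and ran the other way. The gene had log2 values of 5.33, 5.12 and 5.54 in R3, against 6.31, 6.14 and 6.96 in R2 and 5.46, 5.53 and 5.99 in R1. R2 was the highest gate, and R3 and R1 overlapped, with the R3 mean at the guide. In R3 it was 2.20-fold lower than in R2 (-1.14 on the log2 scale, SE 0.23, limma adjusted p = 0.0223). The call was lost without R3 replicate 2 (adjusted p = 0.0699), R3 replicate 4 (0.0877) or R2 replicate 2 (0.0505), within 0.00458 to 0.0877 over the alternatives. R2 exceeded R1 by 0.81 (adjusted p = 0.0508), and with the mouse as a fixed block this passed (adjusted p = 0.00938), as it did with 5 other alternatives, among them a random block (0.0379), leaving out R2 replicate 4 (0.0464) and leaving out R1 replicate 5 (0.039), within 0.00938 to 0.147. In RefSeq (GRCm38.p6), Kcna5, Kcna1 and Kcna6 follow each other on chromosome 6 with no other protein-coding gene between them. In R3 against R2, Kcna5 was thus lower beside its higher neighbours. The neighbours Kcna3 and Kcna2 on chromosome 3 gave 1 called gene, Kcna2, while Kcna3 stood at 3.49 in R3, 3.28 in R2 and 3.67 in R1.

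**Figure D2:**
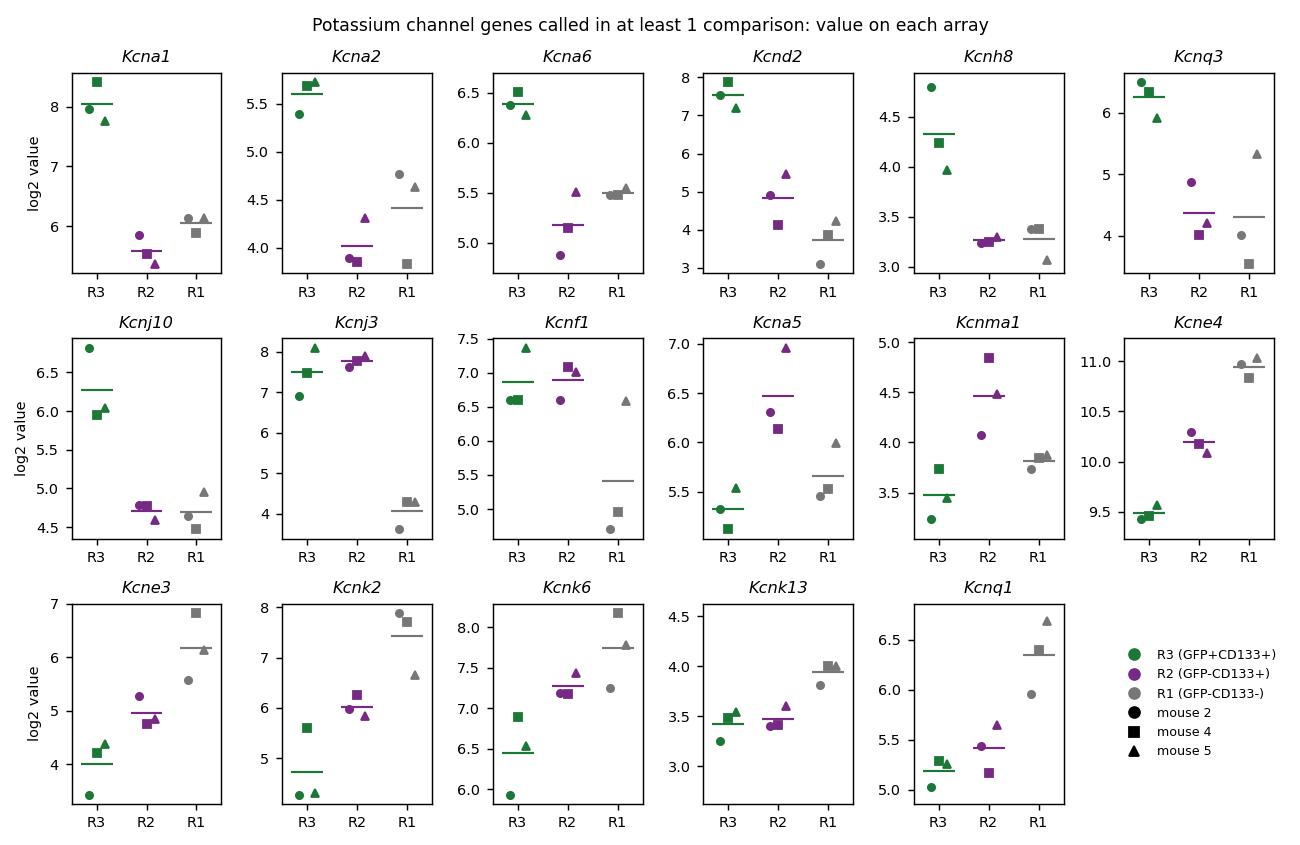
Log2 value (vertical axis, scaled for each gene) of the 17 called channel genes on each of the 9 arrays, with gates R3, R2 and R1 from left to right, a symbol for each mouse and a line at the gate mean. Kcna1, Kcna2, Kcna6, Kcnd2, Kcnh8, Kcnq3 and Kcnj10 are apart in R3, Kcnj3 is high in both papilla gates, and Kcne4 averages 9.49 in R3, 10.19 in R2 and 10.94 in R1.

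Kcnd2 encodes Kv4.2, the pore subunit of a rapidly inactivating (A-type) current. It had log2 values of 7.55, 7.87 and 7.20 in R3, against 4.91, 4.12 and 5.46 in R2 and 3.09, 3.86 and 4.22 in R1. R3 was far above both other gates, whose arrays overlapped. In R3 the gene was 6.55-fold higher than in R2 (2.71 on the log2 scale, SE 0.37, limma adjusted p = 0.00254) and 14.1-fold higher in R3 than in R1 (log2 change 3.82, adjusted p = 0.000125), against levels around or under the background guide. R2 stood 1.11 above R1 (adjusted p = 0.0835), which passed only without R2 replicate 4 (0.0348) among the alternatives (0.0348 to 0.234). Read from the mean of its probe sets, the change of Kcnd2 was 1.79 in R3 against R2 and 2.27 in R3 against R1. Of its 3 other probe sets, 1 was called higher in R3 than in R2 (2.13) and 2 in R3 than in R1 (2.75 and 2.58).

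Partners of Kv4 channels did not follow Kcnd2 past the test. The Kv channel-interacting protein genes Kcnip1, Kcnip2, Kcnip3 and Kcnip4, named after their values were seen, had log2 changes of 0.24, 0.16, 0.18 and 0.09 in R3 against R2, and none was called (adjusted p = 0.609, 0.585, 0.705 and 0.762). Dpp6 and Dpp10, which encode the other class of Kv4 partner, changed by -0.02 and 0.02. Gate means of Kcnip3 (4.80 to 4.98), Dpp6 (3.86 to 4.01) and Dpp10 (3.63 to 3.71) lay under the background guide. Those of Kcnip2 (5.19 to 5.36) lay around it, and those of Kcnip1 (6.14 to 6.38) and Kcnip4 (5.36 to 5.49) above it. The dim levels limit what the lack of a call shows. The remaining 8 genes of the Kv1 to Kv4 group were not called in any comparison. Kcna4, the brightest probe set of the group on average, had gate means of 7.21 ± 0.14 in R3, 7.30 ± 0.13 in R2 and 6.97 ± 0.43 in R1 (SD, n = 3 each).

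Kcnq3 encodes Kv7.3, a subunit of the M current that damps repeated firing. Log2 values were 6.49, 6.34 and 5.91 in R3, against 4.87, 4.02 and 4.21 in R2 and 4.02, 3.54 and 5.33 in R1. R3 was the highest gate, and R1 was widely spread. All R2 and R1 arrays lay under the background guide, so the folds rest on dim signals there. In R3 the gene was 3.68-fold higher than in R2 (1.88 on the log2 scale, SE 0.41, limma adjusted p = 0.0315) and 3.86-fold higher in R3 than in R1 (adjusted p = 0.00962). The call against R2 was lost with the mouse as a fixed block (adjusted p = 0.0501) and without R3 replicate 2 (0.105), R3 replicate 4 (0.102), R3 replicate 5 (0.0501), R2 replicate 4 (0.115) or R2 replicate 5 (0.0903), within 0.00146 to 0.115. Its other probe set, tested among all probe sets, changed by 1.66 in R3 against R2 (adjusted p = 0.00334).

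Kcnq1, which encodes Kv7.1 of heart and epithelia, was lower in both papilla gates. Its log2 values were 5.03, 5.29 and 5.26 in R3 and 5.44, 5.17 and 5.65 in R2, against 5.96, 6.40 and 6.69 in R1. R3 and R2 overlapped around the background guide, and all R1 arrays were above them. The gene was 2.23-fold lower in R3 than in R1 (log2 change -1.16, SE 0.20, limma adjusted p = 0.00339) and 1.90-fold lower in R2 than in R1 (adjusted p = 0.0146, and 0.0591 without R2 replicate 4, the highest of a range from 0.00618). The third measured Kv7 gene, Kcnq5, had means of 6.92 in R3, 6.52 in R2 and 6.30 in R1 and was not called.

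Kcnh8 encodes Kv12.1, of the ELK branch of the ether-a-go-go family. It had log2 values of 4.80, 4.24 and 3.97 in R3, against 3.24, 3.25 and 3.30 in R2 and 3.38, 3.38 and 3.07 in R1. R3 was above both other gates, but every value lay under the background guide. In R3 it was 2.10-fold higher than in R2 (1.07 on the log2 scale, SE 0.20, limma adjusted p = 0.0143) and 2.08-fold higher in R3 than in R1 (adjusted p = 0.00524). Without R2 replicate 2 or R2 replicate 4 the call against R2 was lost (adjusted p = 0.0534 and 0.0536, within 0.00803 to 0.0536). The other 5 genes of the family were not called, and Kcnh3, its brightest probe set, stood at 7.38 in R3, 7.25 in R2 and 7.40 in R1.

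Modulatory (silent) Kv subunits form no channel alone and change Kv2 channels when built into them. Of the 9 measured, only Kcnf1 (Kv5.1) was called, higher in R3 than in R1. The 9 arrays gave log2 values of 6.60, 6.60 and 7.37 in R3 and 6.60, 7.08 and 7.01 in R2, against 4.70, 4.95 and 6.59 in R1. The R1 array of mouse 5 reached nearly the lowest papilla arrays, while the other R1 arrays were far below and under the guide. The gene was 2.72-fold higher in R3 than in R1 (log2 change 1.45, SE 0.44, limma adjusted p = 0.0486). That call was kept in 6 of 19 alternatives, with adjusted p from 0.00148 without R1 replicate 5 to 0.152 without R1 replicate 2 or R1 replicate 4. It was also lost without R3 replicate 2 (0.0789), R3 replicate 4 (0.0828), R3 replicate 5 (0.145) or any 1 of the R2 arrays (0.0635, 0.0678 and 0.0682 for mice 2, 4 and 5), and in 5 settings that left out no array of R3 or R1 (0.0523 to 0.0927). Among these the mean of its probe sets, gave a change of 0.75. R2 exceeded R1 by 1.48 (adjusted p = 0.0562), which passed with mouse fitted as a fixed block (0.0213), as a random block (0.0444), without R1 replicate 5 (0.00179), among genes above the guide (0.0415) or with a trended, robust variance (0.046), within 0.00179 to 0.167. In R3 against R2 limma called 0 of the 9, with 1 at an unadjusted p under 0.05. Kcns2, the brightest probe set of this group, had means of 7.11 in R3, 7.92 in R2 and 7.75 in R1 and was not called.

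**Figure D3:**
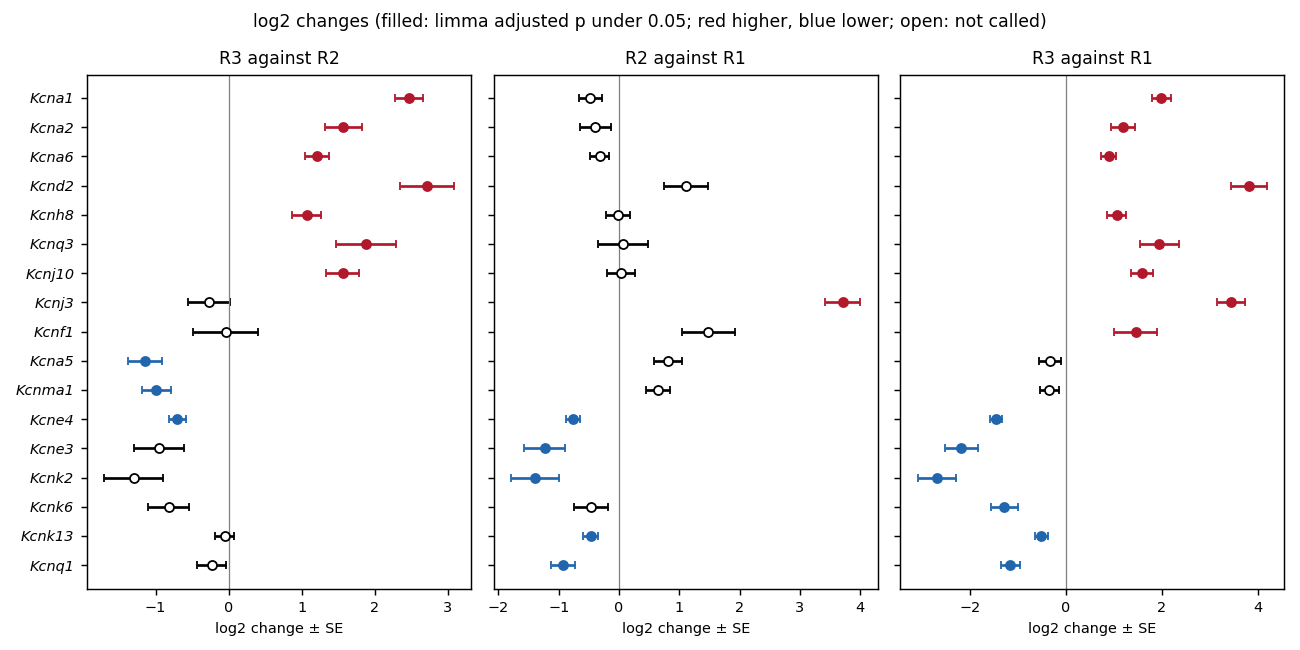
Log2 change (horizontal axis) with its moderated standard error for the 17 called channel genes, in R3 against R2, R2 against R1 and R3 against R1. Filled red points are higher and filled blue points lower at limma's adjusted p of 0.05, and open points were not called. Kcnj3 lies at 3.71 and 3.44 against R1 but at -0.27 between the papilla gates, whereas Kcna1 lies at 2.47 between them.

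Tandem pore domain genes were called only as lower in the papilla gates among the 12 measured. Against R1, 3 were lower in R3 and 2 in R2. Between R3 and R2 limma called 0 of the 12, with 3 at an unadjusted p under 0.05 and changes from -1.75 to 0.10. Kcnk2 encodes TREK-1, a background channel opened by membrane stretch and fatty acids. The gene had log2 values of 4.28, 5.60 and 4.31 in R3 and 5.97, 6.25 and 5.85 in R2, against 7.89, 7.70 and 6.66 in R1. The gates were ranked without overlap, with R1 at the top and R3 at the bottom. The gene was 6.45-fold lower in R3 than in R1 (log2 change -2.69, SE 0.40, limma adjusted p = 0.00136). It was 2.63-fold lower in R2 than in R1 (log2 change -1.39, adjusted p = 0.0473). The R3 mean of 4.73 lay under the background guide, so the fold against R1 rests on a dim R3 signal.

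The call of Kcnk2 in R2 against R1 was lost without R3 replicate 2 (adjusted p = 0.0526), R3 replicate 5 (0.0523), R2 replicate 2 (0.118), R2 replicate 4 (0.0872), R2 replicate 5 (0.124), R1 replicate 2 (0.145) or R1 replicate 4 (0.135), and where every probe set was tested singly (0.0549). It was kept in 11 of 19 alternatives, within 0.0182 to 0.145. R3 was lower than R2 in level without passing the test (log2 change -1.30, adjusted p = 0.107), and the difference passed only without R3 replicate 4 (0.0289, within 0.0289 to 0.281).

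Kcnk6 (TWIK-2) had log2 values of 5.93, 6.89 and 6.53 in R3 and 7.19, 7.18 and 7.44 in R2, against 7.25, 8.18 and 7.78 in R1. It was 2.44-fold lower in R3 than in R1 (log2 change -1.29, SE 0.28, limma adjusted p = 0.0106), and R2 overlapped with R1. Kcnk13 (THIK-1) had values of 3.25, 3.48 and 3.54 in R3 and 3.40, 3.41 and 3.60 in R2, against 3.81, 4.00 and 4.00 in R1. All of these Kcnk13 values lay well under the background guide. It was 1.43-fold lower in R3 than in R1 (adjusted p = 0.0232) and 1.38-fold lower in R2 than in R1 (adjusted p = 0.0455).

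Both Kcnk13 calls depended on single arrays and on the processing. In R3 against R1 the call was lost without R3 replicate 2 (adjusted p = 0.077), R3 replicate 4 (0.0517), R1 replicate 4 (0.0755) or R1 replicate 5 (0.0646), within 0.0139 to 0.114. In R2 against R1 it was kept in 6 of 18 alternatives and lost without R3 replicate 4 (0.0662), R2 replicate 2 (0.128), R2 replicate 4 (0.137), R2 replicate 5 (0.0527), R1 replicate 2 (0.0567), R1 replicate 4 (0.125) or R1 replicate 5 (0.112), within 0.0355 to 0.137. Read from the mean of its 2 probe sets, its change was -0.27 in R2 against R1 and -0.26 in R3 against R1, and neither passed (limma adjusted p = 0.128 and 0.114). The R2 against R1 call was also lost in the 6 arrays alone (0.0605), with median centring (0.0623) and with probe sets tested singly (0.0593). Neither call met the 2-fold minimum.

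Kcnk1 (TWIK-1), named after its values were seen, was the member with the widest spread in 1 gate. Log2 values were 5.41, 6.32 and 5.06 in R3, against 7.74, 8.51 and 5.78 in R2 and 5.89, 6.53 and 6.27 in R1. Mice 2 and 4 had high R2 values and mouse 5 did not, and no comparison was called (log2 change -1.75 in R3 against R2, limma adjusted p = 0.152). The remaining 8 tandem pore genes were not called.

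Among 8 calcium- or sodium-activated channel genes, Kcnma1 was the only one called, and only in R3 against R2. It encodes the pore of the BK channel, which is opened by calcium and voltage together. Its log2 values were 3.24, 3.74 and 3.45 in R3, against 4.07, 4.84 and 4.48 in R2 and 3.74, 3.85 and 3.88 in R1. On this probe set R2 was the highest gate, but all values lay under the background guide. Other Kcnma1 probe sets differed in the order of the gates, 1 of them with means of 2.96 in R3, 3.50 in R2 and 3.78 in R1. In R3 the gene was 1.98-fold lower than in R2 (-0.99 on the log2 scale, SE 0.20, limma adjusted p = 0.0225). The call was lost without R3 replicate 2 (adjusted p = 0.084), R3 replicate 5 (0.0618), R2 replicate 4 (0.0717) or R2 replicate 5 (0.0645). It was also lost in the fit of the 6 arrays alone (0.0623), and for the mean of its 5 probe sets the change was -0.33 (0.234), the top of a range from 0.0112. R2 exceeded R1 by 0.64 (adjusted p = 0.0691), which passed with mouse fitted as a fixed block (0.031) or without R2 replicate 2 (0.0249), within 0.0249 to 0.937. Over the alternatives this log2 change ran from -0.03 to 0.84. In R2 against R1, limma called 0 of the 8, with 4 at an unadjusted p under 0.05, and in R3 against R1 it called 0, with 0 at that level. Kcnn2, the brightest probe set of the group and a small-conductance channel gene, had means of 7.20 in R3, 7.72 in R2 and 6.94 in R1.

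Of 15 auxiliary subunit genes, Kcne4 and Kcne3 were called, both only as lower, and changes over the group ran from -0.95 to 0.43 in R3 against R2 and from -2.18 to 0.65 in R3 against R1. Kcne4 encodes a single-span subunit known to inhibit Kv7.1 and some Kv1 channels. The 9 arrays gave log2 values of 9.43, 9.46 and 9.57 in R3, 10.29, 10.18 and 10.09 in R2 and 10.97, 10.83 and 11.03 in R1. The gates formed 3 separate steps far above the background guide, with an SD within gates of at most 0.10. In R3 the gene was 1.63-fold lower than in R2 (-0.70 on the log2 scale, SE 0.12, limma adjusted p = 0.00799). It was 1.69-fold lower in R2 than in R1 (log2 change -0.76, adjusted p = 0.00266) and 2.75-fold lower in R3 than in R1 (log2 change -1.46, adjusted p = 4.18e-05). It was the only channel gene called in all 3 comparisons.

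Kcne3 encodes a related subunit that holds Kv7.1 open in epithelia. It had log2 values of 3.43, 4.20 and 4.38 in R3 and 5.28, 4.75 and 4.84 in R2, against 5.58, 6.83 and 6.13 in R1. The order of the gates was that of Kcne4, from R3 at the bottom to R1 at the top. It was 4.52-fold lower in R3 than in R1 (log2 change -2.18, SE 0.34, limma adjusted p = 0.00175) and 2.34-fold lower in R2 than in R1 (adjusted p = 0.0407). R3 against R2 was not called (log2 change -0.95, adjusted p = 0.162). All R3 and R2 arrays lay under the background guide, so both folds rest on dim signals.

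The Kcne3 call in R2 against R1 was lost with the mouse as a fixed block (adjusted p = 0.0507) and without R3 replicate 4 (0.0575), R2 replicate 2 (0.0568), R2 replicate 4 (0.126), R2 replicate 5 (0.106), R1 replicate 4 (0.115) or R1 replicate 5 (0.085), within 0.0207 to 0.126. Kcnq1, Kcne3 and Kcne4, a pore subunit and subunits that bind it, were each lower in R3 than in R1 and in R2 than in R1. The other measured Kcne genes, Kcne1, Kcne2 and Kcne1l, named after their values were seen, were not called in any comparison. Their log2 changes in R3 against R1 were 0.21, -0.08 and 0.27, at gate means under the background guide. The Kv beta genes Kcnab1, Kcnab2 and Kcnab3, and the BK beta genes Kcnmb1, Kcnmb2 and Kcnmb4, were not called in any comparison. The 3 non-coding transcripts that carry a Kcn symbol (Kcnq1ot1, Kcnmb4os1 and Kcnmb4os2) were not called either, with changes from -0.19 to 0.22. Kcnq1ot1, the imprinted transcript that overlaps Kcnq1, had means of 8.72 ± 0.18 in R3, 8.91 ± 0.17 in R2 and 8.81 ± 0.46 in R1 (SD, n = 3 each).

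**Figure D4:**
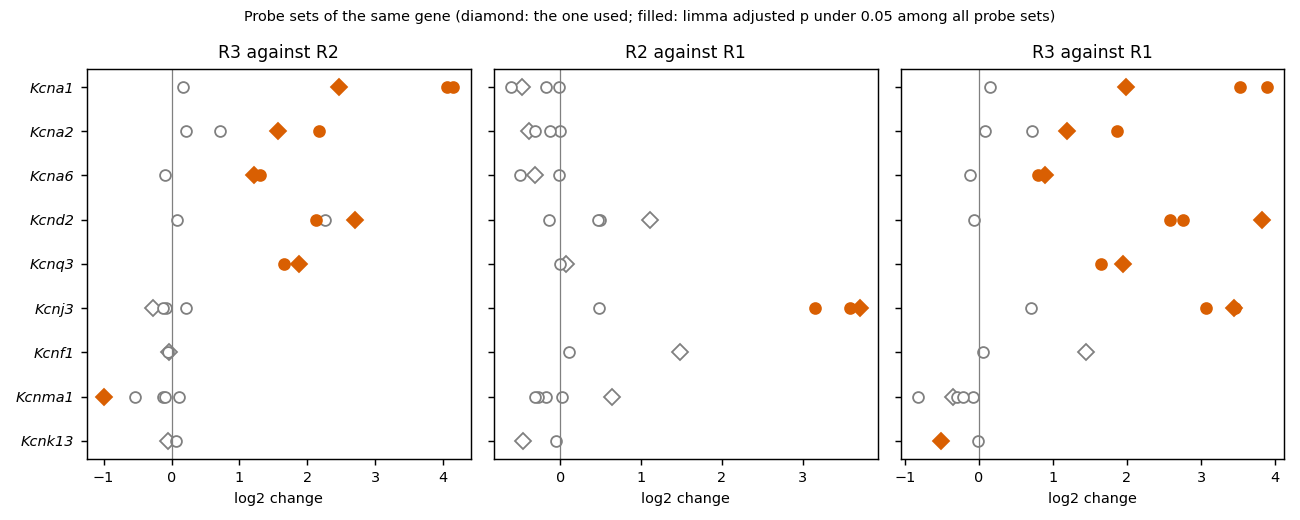
Log2 change (horizontal axis) of each probe set of the 9 called channel genes that have several, with a panel for each comparison. Diamonds are the probe sets used, circles are others of the same gene, and filled symbols passed limma's adjusted p of 0.05 among all probe sets. In R3 against R2, 6 of the 16 other probe sets of called genes were called in the same direction and 0 in the opposite one.

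Probe sets of the same gene are separate readings of the same RNA and not replicates. Of the 10 genes called in R3 against R2, 6 had other probe sets, 16 in all, and 14 of these had the same sign as the one used. In R3 against R1, 9 of 17 other probe sets were called in the same direction and 15 had the same sign. In R2 against R1, 2 of 4 were called in the same direction. In none of the 3 comparisons was another probe set of a called gene called in the opposite direction.

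Other genes of potassium transport were set beside the channels. Of the 4 ATP-sensitive channel genes, Kcnj8 (the pore Kir6.1) averaged 6.55 in R3, 7.69 in R2 and 10.01 in R1 and was lower in R3 than in R2 (-1.14 on the log2 scale, limma adjusted p = 0.00141) and in either papilla gate than in R1 (log2 changes of -3.46 for R3 and -2.32 for R2). Abcc9, the sulfonylurea receptor that joins it, averaged 5.99, 6.97 and 8.54 in R3, R2 and R1 and was lower in R3 than in R1 (limma adjusted p = 0.000501) and in R2 than in R1 (adjusted p = 0.0103). Of 7 measured partner and related genes without a Kcn symbol (Kv4 partners, BK partners and HCN pacemaker channels), limma called 0 in each comparison, and 0 had an unadjusted p under 0.05. All 7 had gate means under the background guide.

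Of 10 measured genes of the sodium-potassium pump and its FXYD regulators, 2 were lower in R3 than in R2, 2 in R2 than in R1 and 3 in R3 than in R1, and 0 were higher. Atp1b1, a beta subunit of the pump, averaged 8.50 in R3 and 9.10 in R2 (log2 change -0.60, limma adjusted p = 0.0397). Fxyd5 averaged 7.23 in R3 and 8.22 in R2 (log2 change -0.99, adjusted p = 0.00803). Fxyd3, known from epithelia, averaged 6.51 in R3, 6.31 in R2 and 8.98 in R1. The median log2 change of the 10 was 0.17 in R3 against R2 and 0.01 in R3 against R1. Of 7 cation-chloride cotransporter genes, Slc12a5 and Slc12a7 were higher in R3 than in R1 (log2 changes of 0.58 and 0.86, adjusted p = 0.0233 and 0.0498). In the other comparisons limma called 0 of these 7, with 1 at an unadjusted p under 0.05 in each.

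Marker lists of other skin cell types moved with the gates on the same arrays. Of 9 measured Schwann and glial markers, 8 were higher in R3 than in R2, with mean list levels of 8.35 to 8.61 on the R3 arrays, 5.40 to 5.64 on the R2 arrays and 6.49 to 6.84 on the R1 arrays (log2). At or under the background guide were 0 of the 9 in R3, 4 in R2 and 3 in R1. Of the same 9 markers, 5 were lower in R2 than in R1 and 6 were higher in R3 than in R1. These values stand beside the higher Kcna1, Kcna2, Kcna6, Kcnd2, Kcnh8, Kcnq3 and Kcnj10 of R3, and their part in those differences was not tested. None of these channel genes was called in R2 against R1. Of 9 neuronal markers limma called 0 in R3 against R2, with 5 at an unadjusted p under 0.05, and their list levels overlapped (5.53 to 6.22 in R3, 5.51 to 5.89 in R2, 5.48 to 5.78 in R1).

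Of 11 endothelial markers, 11 were lower in R3 than in R2 and 10 were higher in R2 than in R1, with list levels of 5.67 to 6.22 in R3, 8.44 to 8.81 in R2 and 6.57 to 6.90 in R1. At or under the guide were 4 of the 11 in R3, 0 in R2 and 1 in R1. They stand beside Kcna5 and, on the probe set used, Kcnma1, which were also highest in R2, and their part was not tested. Pericyte and smooth muscle markers had list levels of 8.46 to 8.59 in R3, 8.77 to 8.82 in R2 and 8.93 to 9.02 in R1, with 1 of 9 lower in R3 than in R2. Of these 9 genes, 2 were higher and 3 lower in R2 than in R1, and 2 higher and 4 lower in R3 than in R1.

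Several marker lists were lower in both papilla gates than in R1. They stand beside Kcnq1, Kcne3, Kcne4, Kcnk2 and Kcnk13, called lower in both, and Kcnk6, called lower in R3 alone. All 11 keratinocyte markers were lower in R3 and in R2 than in R1, with list levels of 7.18 to 8.04 in R3, 7.33 to 7.50 in R2 and 10.08 to 10.50 in R1. Of 11 leukocyte and mast cell markers, 9 were lower in R3 and 10 in R2, with levels of 6.30 to 6.43, 6.34 to 6.79 and 8.68 to 9.21 in R3, R2 and R1. Of 7 melanocyte markers, 6 were lower in R3 and 5 in R2 (levels of 5.94 to 6.93, 6.52 to 7.24 and 8.01 to 8.46). Of 8 fibroblast markers, 5 were lower in each (levels of 10.83 to 10.97, 11.26 to 11.50 and 12.31 to 12.35). Of 9 skeletal muscle markers, 6 were lower in R3 and 4 in R2 (levels of 5.00 to 5.07, 5.39 to 5.66 and 6.07 to 6.29). The part of these cells in the channel differences was not tested.

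**Figure D5:**
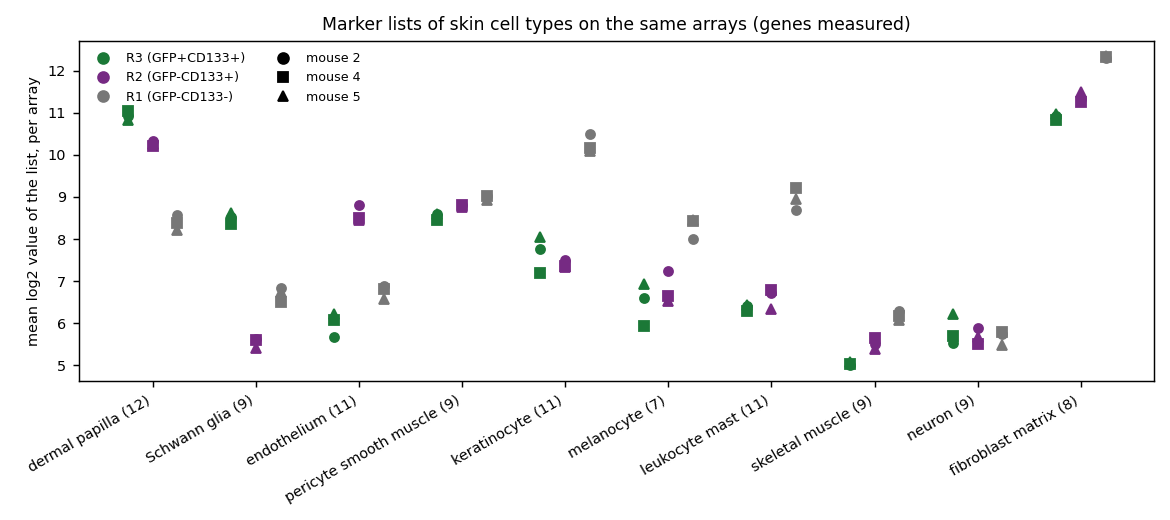
Mean log2 value of each marker list (vertical axis) on each of the 9 arrays, with gates R3, R2 and R1 from left to right within a list, a symbol for each mouse, and the number of genes measured in brackets. Schwann and glial markers are highest in R3 (8.35 to 8.61), endothelial markers in R2 (8.44 to 8.81), and keratinocyte, leukocyte and melanocyte markers in R1.

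The dermal papilla list was set beside the gate labels. Like all lists it was chosen with earlier results of these data known, so it is no independent check of them. Of its 12 genes, 11 were higher in R3 than in R1 and 10 in R2 than in R1, with list levels of 10.83 to 11.05 in R3, 10.22 to 10.33 in R2 and 8.22 to 8.57 in R1. The list holds Prom1, the gene of the sorted protein CD133, and Sox2, which the GFP reporter may follow, so the levels of both are given as a description only. Without this pair, 9 of 10 genes were higher in R3 than in R1 and 8 of 10 in R2 than in R1, with list levels of 10.89 to 11.15 in R3, 10.41 to 10.44 in R2 and 8.74 to 9.05 in R1. Prom1 averaged 10.32 in R3, 11.85 in R2 and 7.43 in R1. Sox2 averaged 10.66 in R3, 7.08 in R2 and 4.19 in R1.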

How the data were processed

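RNA of 3 sorted gates from 3 mice was amplified with the WT-Ovation Pico system, per the labels' protocols, and hybridised to 1 single-colour Affymetrix array per mouse and gate (9 arrays). The deposited values are log2 expression per probe set made by the authors with RMA, per the submitters' processing notes, whose version is not given in the sources used here. RMA equalises the distributions of the arrays, so a shift of all genes together would not be seen. They ran between 1.65 and 14.8 on the log2 scale.

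Of 45101 probe sets, 34945 had 1 gene symbol in the platform annotation, 932 several, 9211 none, and 64 were controls. Gene IDs matched RefSeq for 34741, and 0 symbols differed there. Each gene was read from its brightest probe set on average (18193 genes, 9010 with several probe sets). The gates were compared with limma 3.58.1 in R 4.3.3 over all genes and 9 arrays, 1 coefficient per gate, with Benjamini-Hochberg adjustment over all genes and a threshold of 0.05. The fit was tested on simulated data. Figures were drawn with matplotlib 3.10.9, and promoter motifs were searched as exact letters on both strands of RefSeq windows.

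Genes called in at least 1 comparison may be named. Those with the 10 largest absolute changes per comparison are given on every array, and of other genes the brightest of each family, with exceptions marked in the text. The channel genes and all lists were chosen with earlier results of these data known. Replicate numbers are mouse numbers in the labels, so same-numbered arrays come from the same animal. Deviations from the gate means correlated from 0.007 to 0.177 within a mouse (9 pairs of arrays) and from -0.157 to 0.041 between mice. Alternatives tried were a fixed block and a random block for mouse, omission of each array, the 6 arrays compared alone, median centring, a second quantile normalization, averaged probe sets, probe sets tested singly, a filter at the olfactory receptor level, a trended and robust variance, and a 2-fold minimum.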

Additional observations from a re-analysis of the deposited data

How the results depend on the processing

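The channel genes called numbered 10 in R3 against R2, 6 in R2 against R1 and 15 in R3 against R1. Leaving out 1 array at a time gave 7 to 10, 3 to 6 and 13 to 15, the 3 without R1 replicate 4. Among genes above the olfactory receptor level, where 42 channel genes were tested, 5 were called in R3 against R2. At a minimum of 2-fold, 3 were called in R2 against R1. The causes of these shifts were not tested, beyond the fewer genes, arrays or smaller changes each setting admits. Other counts stayed within 1.5 times. With the mouse as a fixed block, which the labels' pairing calls for, 9, 8 and 16 were called, and with a random block 10, 8 and 16. The fixed block ended the calls of Kcnq3 in R3 against R2 (adjusted p = 0.0501) and Kcne3 in R2 against R1 (0.0507) and added Kcna5, Kcnf1 and Kcnma1 in R2 against R1. It changed no other call among the 17 genes named. In R3 against R1 the fixed block gave 9 higher and 7 lower, so a gene outside the 17 was also called lower. Genes outside the 17 were not followed singly over the alternatives. Of 31 called values, 18 were kept in all alternatives run for them. Over 576 pairs of a called value and a setting, 507 kept the call, 69 lost it and 0 reversed. Over all genes, 915 were called in R3 against R2, but 582, 592 and 596 once R2 of mouse 4, R3 of mouse 4 or R2 of mouse 2 was left out, and at a minimum of 2-fold 509, 1083 and 1476 in the 3 comparisons. R2 against R1 gave 2375 genes, and 1554 without R2 replicate 4. The dim level of Kcnh8, Kcnk13 and Kcnma1, under the background guide on every array, limits what their changes show.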
